A study of Mus musculus with 44 samples.

Results

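Chromatin contacts in strongly fixed cells were compared between 3% and 5% formaldehyde, with 4% as the intermediate step, at 3 viewpoints. The comparison rests on 4 of the 44 libraries of the series, 2 technical replicates at 3% and 2 at 5%. A further 2 libraries at 4% entered the fits that share an estimate of the spread and are otherwise given as values. They were taken by concentration from the labels, and no measured value was used in choosing them. All 6 libraries came from Ter-119+ erythroid cells of phenylhydrazine-treated spleens of female C57BL/6 mice, so these mice were all made anaemic by the treatment and no untreated animal is among them. The cells were selected with magnetic beads against the erythroid surface marker Ter-119 before fixation. Only the formaldehyde concentration differs between the labels of the 6 libraries. No label gives an animal or a preparation, and with technical replicates the p-values below measure only the spread between libraries. The exact permutation test of 2 libraries against 2 cannot go below p = 0.333, and no comparison of a single value can pass a threshold of 0.05 by it.

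Formaldehyde links proteins to DNA and to each other, and chromosome conformation capture (3C) turns such links into DNA joints. The fixed chromatin is cut with a restriction enzyme, here DpnII, which cuts at GATC, and the ends that are held close together are ligated. Capture-C then enriches with oligonucleotides for joints of a chosen fragment, the viewpoint, and each distinct joint counts as 1 unique interaction. Contacts on the viewpoint's own chromosome (in cis) fall off with distance, and contacts with other chromosomes (in trans) include random ligation as well as true proximity.

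The viewpoints are the promoters of genes that are highly expressed in erythroid cells. Hba-a1 and Hba-a2 on chromosome 11 encode the α chain of haemoglobin, and their enhancers lie on the lower-coordinate side. The adult β-globin genes on chromosome 7, named Hbb-b1 and Hbb-b2 in the labels, encode the β chain, and their locus control region (LCR) lies on the higher-coordinate side, past the embryonic globin genes. Slc25a37 on chromosome 14 encodes Mitoferrin-1, which carries iron into mitochondria for haem synthesis. The interactions of the pair of promoters were pooled by the authors at each globin locus. In the mm9 coordinates of the tables, no restriction fragment was listed around the viewpoints, at 32182317-32184781 and 32194990-32197598 on chromosome 11, 110961283-110963273 and 110975292-110977138 on chromosome 7, and 69902161-69904393 on chromosome 14. Distances were measured from the nearest centre of these intervals.

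The promoter sequences are shown because DpnII sites set which stretch of DNA each viewpoint holds. They are the 250 bases before the annotated start in RefSeq (GRCm38.p6, a later build than that of the tables), with GATC in capitals. In the C57BL/6 reference the adult β-globin pair is annotated as Hbb-bs and Hbb-bt.
Hba-a1 (chr11:32283422-32283671, plus strand): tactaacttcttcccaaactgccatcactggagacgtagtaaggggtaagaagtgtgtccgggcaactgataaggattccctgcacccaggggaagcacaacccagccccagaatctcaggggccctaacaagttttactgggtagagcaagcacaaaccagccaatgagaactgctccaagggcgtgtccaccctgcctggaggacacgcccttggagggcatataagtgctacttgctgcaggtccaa
Hbb-bs (chr7:103827929-103828178, minus strand): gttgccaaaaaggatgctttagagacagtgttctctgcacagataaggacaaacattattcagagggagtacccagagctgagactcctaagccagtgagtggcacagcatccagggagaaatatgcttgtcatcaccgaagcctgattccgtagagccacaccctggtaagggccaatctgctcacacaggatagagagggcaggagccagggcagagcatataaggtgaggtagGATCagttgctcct
Hbb-bt (chr7:103813924-103814173, minus strand): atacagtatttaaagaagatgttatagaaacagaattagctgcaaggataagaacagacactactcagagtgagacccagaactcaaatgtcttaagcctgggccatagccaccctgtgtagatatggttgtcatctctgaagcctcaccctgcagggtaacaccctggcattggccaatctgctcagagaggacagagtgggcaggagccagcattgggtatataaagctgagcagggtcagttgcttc
GATC reads the same on both strands. It occurs once in the Hbb-bs sequence, beginning 14 bases before the start, and 0 times in those of Hba-a1, Hba-a2 and Hbb-bt. Among all 32851 promoters of the table, 41.9% hold at least 1 GATC in the same window. The Hba-a1 and Hba-a2 sequences share an unbroken run of 247 of these 250 bases, whereas the longest run shared by Hbb-bs and Hbb-bt is 14 bases.

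Depth varied between the libraries at each viewpoint, and the first 3% replicate was the shallowest throughout. This replicate also held the lowest proportion of interactions in cis at each viewpoint. The α-globin totals ran from 57467 to 83971 unique interactions, those of β-globin from 40235 to 57640 and those of Slc25a37 from 18397 to 27725. Profiles over the restriction fragments within 250 kb of the viewpoint had r-values in like ranges between concentrations and within them. For α-globin, r-values across fragments were between 0.989 and 0.992 for the 3 pairs of replicates and between 0.988 and 0.991 for the 4 pairs of a 3% with a 5% library. For β-globin these ranges were 0.984 to 0.989 and 0.981 to 0.989, and for Slc25a37 they were 0.983 to 0.987 and 0.982 to 0.988. The r-values are across fragments of shared libraries, which are not independent, and are given without a test.

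At all 3 viewpoints, the 5% libraries held a smaller share of interactions on other chromosomes than the 3% libraries. Their share in the neighbourhood of the viewpoint was larger. The 3 viewpoints were read from the same libraries, so a like change at each of them is not independent replication. For α-globin, 68.8% of interactions were in cis in the first 3% replicate (95% Wilson interval 68.4% to 69.1%) and 71.4% in the second (71.1% to 71.7%). At 5% these values were 74.1% (73.8% to 74.4%) and 74.7% (74.4% to 75.0%). These intervals cover counting error only. The 5% libraries lay above both 3% libraries, and the means were 70.1% ± 1.85 and 74.4% ± 0.431 (SD, n = 2), a difference of 4.35 percentage points. The 4% libraries, with 71.7% and 73.6%, lay between these means.

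For β-globin, which had the lowest proportion in cis, the 3% libraries held 64.3% and 65.5% and the 5% libraries 70.1% and 69.3%. The means were 64.9% ± 0.852 and 69.7% ± 0.562 (SD, n = 2), a difference of 4.88 percentage points, and the 4% libraries held 66.2% and 68.0%. For Slc25a37 the 3% libraries held 70.7% and 72.0% and the 5% libraries 74.6% and 74.8%. The means were 71.3% ± 0.950 and 74.7% ± 0.173 (SD, n = 2), a difference of 3.36 percentage points, with 72.3% and 73.5% at 4%. At each viewpoint the concentrations did not overlap and the exact two-sided permutation test gave its smallest value, p = 0.333. Whether the viewpoints differ in this change was not tested.

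**Figure D1:**
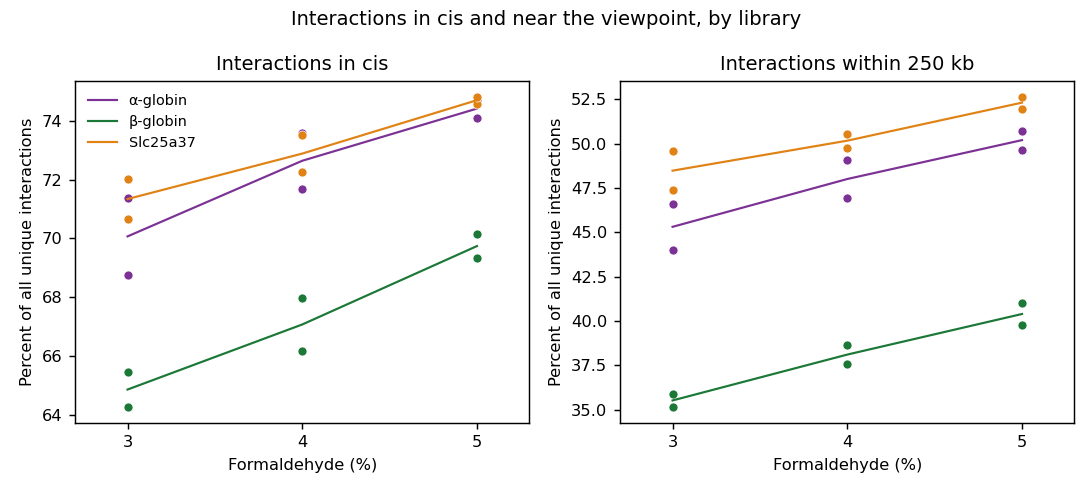
Percent of all unique interactions in cis (left) and within 250 kb of the viewpoint (right) against formaldehyde concentration in percent, for the 3 viewpoints. Each point is 1 library, lines join the means of 2 technical replicates, and the vertical axes do not start at 0. Both 5% libraries lie above both 3% libraries in each series, as for β-globin with 64.3% and 65.5% against 70.1% and 69.3% in cis.

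The gain in cis was a local one. The proportion within 250 kb rose from 45.3% ± 1.86 to 50.2% ± 0.751 for α-globin, from 35.5% ± 0.544 to 40.4% ± 0.915 for β-globin and from 48.5% ± 1.57 to 52.3% ± 0.484 for Slc25a37 (SD, n = 2). The differences were 4.89, 4.88 and 3.84 percentage points, against 4.35, 4.88 and 3.36 over the whole chromosome. By distance, the interactions under 10 kb gained 2.72 (α-globin), 2.31 (β-globin) and 1.36 (Slc25a37) percentage points. Those at 10 to 40 kb gained 1.98, 1.64 and 2.36 percentage points in the same order. The concentrations did not overlap in any of these 6 sets of libraries, and the 4% mean lay between the 3% and 5% means in each.

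Farther out, the differences were smaller. At 40 to 160 kb, the share was 12.0% and 11.7% in the 3% libraries and 13.2% and 12.5% in the 5% libraries for β-globin. This difference of 0.969 percentage points compares with 0.158 for α-globin (means of 7.93% and 8.09%) and 0.123 for Slc25a37 (8.34% and 8.46%), where the libraries of Slc25a37 overlapped. The α-globin mean at 4%, 8.27%, lay above those at 3% and 5%. From 160 to 1280 kb the differences were 0.0544, 0.125 and 0.0494 percentage points for α-globin, β-globin and Slc25a37, and the libraries overlapped at every viewpoint. Beyond 20480 kb the share fell slightly, by 0.396, 0.379 and 0.433 percentage points in this order, without overlap. The gain at 40 to 160 kb for β-globin was not seen as a share of interactions in cis, of which this band held 18.7% and 17.9% at 3% and 18.8% and 18.0% at 5%, a difference of 0.100 percentage points with overlapping libraries. For α-globin this share of cis was lower at 5%, with 11.6% and 11.1% at 3% and 10.9% and 10.8% at 5%. The difference was -0.453 percentage points without overlap, and for Slc25a37 it was -0.363 with overlap.

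The decay with distance was steeper at 5%, but only by a small amount. The decay slope is the slope of log2 interactions per kb on log2 distance, so that a slope of -1 means that interactions per kb are inversely proportional to distance. From 10 kb to 1 Mb, the α-globin slopes were -1.52 and -1.56 in the 3% libraries and -1.57 and -1.58 in the 5% libraries, with -1.53 and -1.57 at 4%. The β-globin slopes were -1.43 and -1.45 at 3% against -1.45 and -1.47 at 5%, with the nearest libraries of the 2 concentrations equal to within rounding. The 4% libraries, at -1.45 and -1.49, had a mean of -1.468, steeper than the 5% mean of -1.464. The Slc25a37 slopes were -1.68 and -1.68 at 3% against -1.71 and -1.74 at 5%, with -1.72 and -1.68 at 4%. The differences of the means were -0.0324, -0.0225 and -0.0443 (exact permutation p = 0.333 each, the smallest possible), beside SDs of the replicates at 3% and 5% of 0.000545 to 0.0272. From 20 to 500 kb the difference for α-globin was smaller, -0.0147, with overlapping libraries, and those for β-globin and Slc25a37 were larger, -0.0723 and -0.103.

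From 1 to 40 Mb no change of slope was resolved. The α-globin slopes were -0.469 and -0.459 at 3% and -0.467 and -0.463 at 5%, the shallowest of the 3 viewpoints. For β-globin they were -0.676 and -0.650 at 3% and -0.669 and -0.676 at 5%. The libraries of the 2 concentrations overlapped for both globin loci. For Slc25a37, the slopes of -0.778 and -0.741 at 3% and -0.785 and -0.795 at 5% did not overlap, and the difference was -0.0306. This difference turned to 0.0352 when the range was 2 to 20 Mb.

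To locate the change, all interactions of a library were divided into distance classes on each side of the viewpoint and into the other chromosomes, and each class was tested with edgeR's quasi-likelihood test against the total of the library. For α-globin 21 of 48 classes (43.8%) passed an adjusted p of 0.05, of which 6 were higher (12.5%) and 15 lower (31.2%) at 5%. For β-globin 20 of 48 (41.7%) passed, 7 higher (14.6%) and 13 lower (27.1%). For Slc25a37, with the fewest counts, 0 of 47 classes passed as higher (0.0%) and 2 as lower (4.26%). All the classes that were higher were in cis and all those that were lower were other chromosomes. Since every class is a share of 1 total, a gain in some classes lowers the others. The paper reports that strongly fixed cells were harder to digest, and the part of digestion in these changes was not tested.

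**Figure D2:**
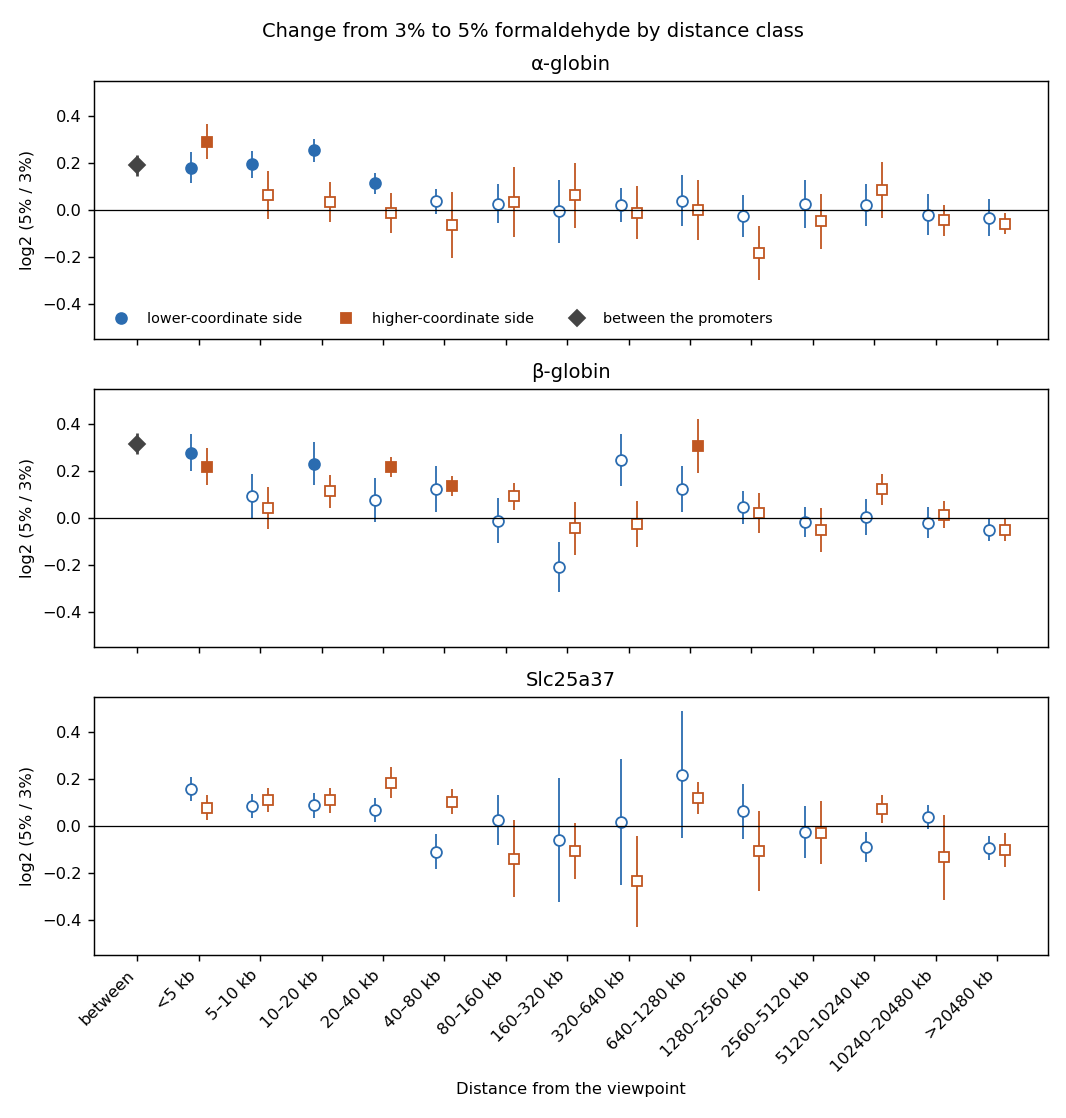
Log2 change in share of interactions from 3% to 5% formaldehyde (vertical) by distance from the viewpoint (horizontal), for classes on the lower-coordinate side, on the higher-coordinate side and between the promoters of a pair. Bars are standard errors of the edgeR fit, and filled symbols mark an adjusted p under 0.05. Filled symbols lie within 40 kb for α-globin and within 80 kb for β-globin, except for 1 class at 640 to 1280 kb, and Slc25a37 has none.

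At α-globin the higher classes were those between the promoters and on the enhancer side up to 40 kb, with 1 exception next to the second promoter. The stretch between Hba-a1 and Hba-a2 held 8099 and 8892 interactions per 100000 at 3%, 8703 and 9238 at 4%, and 9687 and 9705 at 5%. Both 5% libraries lay above all others, and the log2 change from 3% to 5% was 0.19 ± 0.05 (SE, adjusted p = 0.00169, edgeR). The class 10 to 20 kb on the enhancer side held 5779 and 6399 at 3%, 6436 and 7131 at 4%, and 7267 and 7269 at 5%, a log2 change of 0.25 ± 0.05 (adjusted p = 7.72e-05). The classes at 0 to 5, 5 to 10 and 20 to 40 kb on this side changed by 0.18, 0.20 and 0.11 on the log2 scale (adjusted p = 0.0234, 0.00682 and 0.0326). They did not pass in 4, 3 and 8 of 11 alternatives, and the log2 change at 20 to 40 kb then ran down to 0.03.

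The opposite side of α-globin, where no α-globin enhancer lies, was higher at 5% next to the promoter. The class 0 to 5 kb held 2026 and 2037 interactions per 100000 at 3% and 2528 and 2443 at 5% (log2 change 0.29 ± 0.07, adjusted p = 0.00177). From 10 to 20 kb this side held 1343 and 1434 at 3% and 1368 and 1484 at 5%, and from 20 to 40 kb the means were 1457 ± 61.3 at 3% and 1439.8 ± 2.26 at 5% (SD, n = 2). The groups overlapped in both classes, with log2 changes of 0.03 ± 0.09 and -0.01 ± 0.09. Beyond 40 kb 0 of 20 classes of either side passed, and their log2 changes ran from -0.19 to 0.08.

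The log2 ratio of the enhancer side to the opposite side, over interactions 10 to 100 kb from α-globin, was 2.69 and 2.76 in the 3% libraries, 2.83 and 2.86 at 4%, and 2.85 and 2.85 at 5%. The 5% libraries lay above both 3% libraries and within the range of the 4% libraries. The difference was 0.12 (exact permutation p = 0.333, the smallest possible), beside an SD of 0.05 at 3% from 2 libraries. Over the range 20 to 250 kb it was 0.08 with overlapping libraries.

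At β-globin the largest rise of the classes that passed lay between the promoters. This stretch held 6773 and 7193 interactions per 100000 at 3%, 7302 and 7708 at 4%, and 8941 and 8482 at 5%, a log2 change of 0.32 ± 0.04 (adjusted p = 8.68e-10). On the LCR side, the class 20 to 40 kb held 7732 and 8185 at 3%, 8535 and 8789 at 4%, and 9169 and 9337 at 5% (log2 change 0.22 ± 0.04, adjusted p = 2.83e-05). These 2 classes passed under each of the 11 alternatives, in which the log2 change ran from 0.21 to 0.36 between the promoters and from 0.11 to 0.26 at 20 to 40 kb. The next class outward, 40 to 80 kb, changed by 0.14 (adjusted p = 0.00729).

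Next to the promoter on the LCR side, the class at 0 to 5 kb rose from 1374 and 1356 interactions per 100000 at 3% to 1611 and 1565 at 5% (log2 change 0.22 ± 0.08, adjusted p = 0.0171). The classes between these on the LCR side, at 5 to 10 and 10 to 20 kb, changed by 0.04 ± 0.09 and 0.11 ± 0.07 on the log2 scale and did not pass. On the side away from the LCR, the classes at 0 to 5 kb and 10 to 20 kb rose by 0.28 and 0.23 (adjusted p = 0.00383 and 0.0322). Of 11 alternatives, the LCR-side class at 0 to 5 kb did not pass in 6, and these 2 did not pass in 4 and 5. A class at 640 to 1280 kb on the LCR side rose from 462 and 396 interactions per 100000 to 557 and 491 (log2 change 0.31 ± 0.12, adjusted p = 0.0249), and did not pass in 7 of 10 alternatives. The log2 ratio of the side away from the LCR to the LCR side was -2.68 and -2.73 at 3% and -2.76 and -2.76 at 5%, with -2.63 and -2.71 at 4%. This difference of -0.05 favoured the LCR side, and the 4% libraries did not lie between.

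At Slc25a37 no class in cis passed the test. All 8 classes under 40 kb had log2 changes above 0, from 0.07 to 0.19. The largest of these, 20 to 40 kb on the higher-coordinate side, toward Entpd4 and Loxl2, held 10290 and 10785 interactions per 100000 at 3%, 11218 and 11298 at 4%, and 11696 and 12327 at 5% (log2 change 0.19 ± 0.07, adjusted p = 0.0734). Both 5% libraries lay above the others. The class 0 to 5 kb on the lower-coordinate side held 4484 and 5115 at 3% and 5358 and 5434 at 5% (adjusted p = 0.0501). The log2 side ratio at 10 to 100 kb was -1.17 and -1.27 at 3% and -1.29 and -1.38 at 5%, with 4% values of -1.25 and -1.33 that overlapped both, a difference of -0.12 toward the higher-coordinate side.

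On other chromosomes the share fell almost uniformly. For α-globin 18 of 19 chromosomes had a log2 change below 0 and 15 passed, with changes of -0.21 to -0.30 among those that passed. The exception was chromosome 19, which held 1349 and 1437 interactions per 100000 at 3% and 1439 and 1361 at 5% (log2 change 0.01 ± 0.09). For comparison, chromosome 2 held 2019 and 1794 at 3% and 1591 and 1500 at 5% (log2 change -0.30 ± 0.08, adjusted p = 0.00375). For β-globin all 19 were below 0 and 13 passed, with changes of -0.17 to -0.35. The largest fall was that of chromosome 14, from 1459 and 1493 to 1107 and 1216 (adjusted p = 0.000456), and the smallest again that of chromosome 19 (-0.07 ± 0.10). For Slc25a37 18 of 19 were below 0, and only chromosomes 2 and 3 passed, with log2 changes of -0.26 and -0.30 (adjusted p = 0.0113 and 0.0356). Its exception was chromosome 10, at 0.05 ± 0.09. No chromosome was tested against the others.

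**Figure D3:**
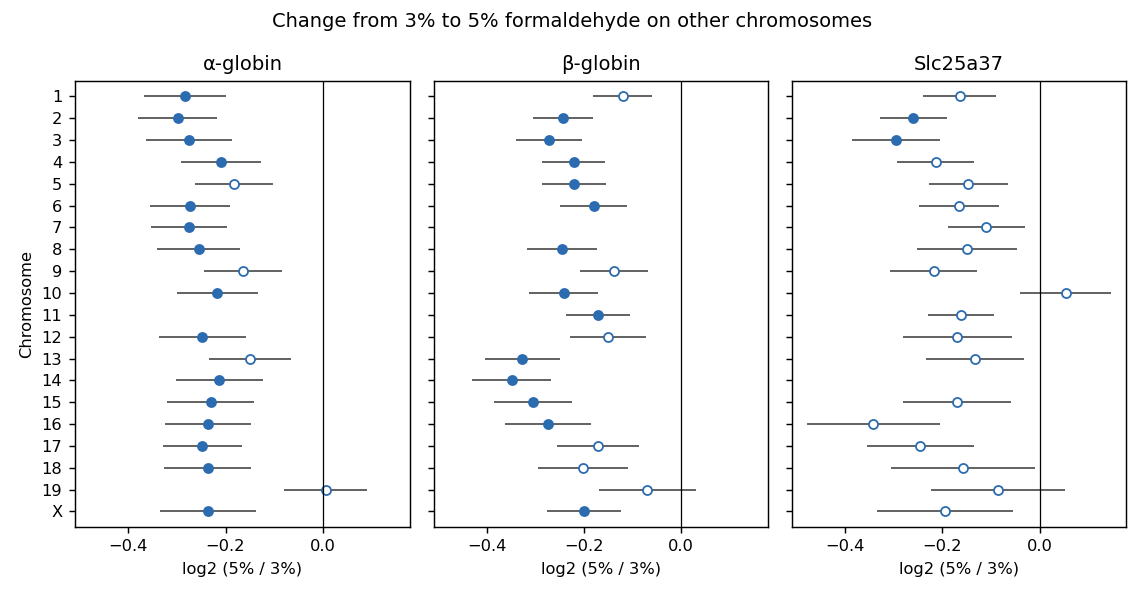
Log2 change in share of interactions from 3% to 5% formaldehyde (horizontal) for each chromosome other than the viewpoint's own (vertical). Bars are standard errors of the edgeR fit, and filled symbols mark an adjusted p under 0.05. All points lie below 0 except chromosome 19 for α-globin and chromosome 10 for Slc25a37.

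The number of classes that passed rested on few libraries. Without the first 3% replicate the α-globin, β-globin and Slc25a37 counts were 1, 7 and 0, without the first 5% replicate 4, 2 and 0, and without the second 5% replicate 3, 12 and 0. Relative to the interactions in cis alone, a scale chosen after the data were seen, 3, 5 and 0 classes passed. For α-globin these were the enhancer side at 10 to 20 kb (log2 change 0.17) and the opposite side at 0 to 5 kb (0.21), both higher, and the opposite side beyond 20480 kb, lower by 0.14. For β-globin, the stretch between the promoters (0.21) and the LCR side at 20 to 40 kb (0.11) were higher, and both sides beyond 20480 kb and the side away from the LCR at 160 to 320 kb were lower (-0.16, -0.16 and -0.31). The log2 changes of the higher classes were thus smaller against interactions in cis than against all interactions.

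In windows of 5 kb, the changes were located more closely, and all windows that passed were higher at 5%. For α-globin 2 of 244 windows (0.82%) passed, for β-globin 4 of 164 (2.44%) and for Slc25a37 0 of 74 (0.0%, with 11 at an unadjusted p under 0.05, 10 of them higher). DESeq2, which here scaled the libraries by the tested windows and not by their totals, called 0 at each viewpoint. All 6 windows lay within 40 kb of a viewpoint. Windows farther out held fewer interactions and had larger standard errors, so changes of this size could hardly pass there. Relative to interactions in cis, the SE was 0.0444 and 0.0475 for the α-globin windows that passed. For the distant window chr11:11585001-11590000, for example, it was 0.42.

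On the enhancer side of α-globin, the window chr11:32165001-32170000 (mm9), 16.0 kb from the nearer promoter, held 3626 and 3950 interactions per 100000 at 3%, 3915 and 4429 at 4%, and 4659 and 4543 at 5%. Both 5% libraries lay above the other 4, and the log2 change from 3% to 5% was 0.28 ± 0.06 (SE, adjusted p = 0.0148, edgeR). The window chr11:32195001-32200000 takes in nearly all of the second α-globin viewpoint (32194990-32197598), where no fragment is listed, and the stretch after it. This window held 1669 and 1655 at 3%, 1821 and 1823 at 4%, and 2123 and 2021 at 5% (log2 change 0.32 ± 0.07, adjusted p = 0.00621). The 3 concentrations stood in order without overlap. Neither window passed when any 1 of the 4 libraries at 3% and 5% was left out, with log2 changes of 0.22 to 0.34 and 0.28 to 0.35.

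At β-globin the window with the smallest adjusted p, chr7:110970001-110975000, lies between the promoters, 3.71 kb from the nearer one. It held 4146 and 4498 interactions per 100000 at 3%, 4447 and 4677 at 4%, and 5476 and 5448 at 5%, a log2 change of 0.34 ± 0.07 (adjusted p = 0.000102). Here 4% stayed close to 3%, and the 5% libraries stood apart. On the LCR side, the window chr7:111005001-111010000, 31.3 kb from the nearer promoter, held 3062 and 3339 at 3%, 3466 and 3711 at 4%, and 3985 and 3958 at 5%, an ordered rise without overlap (log2 change 0.31 ± 0.07, adjusted p = 0.00101). It did not pass without the first 3% replicate (adjusted p = 0.0714) or with TMM factors (0.100).

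The window chr7:110965001-110970000, in the middle of the stretch between the promoters, held 606 and 485 interactions per 100000 at 3%, 542 and 546 at 4%, and 841 and 564 at 5% (log2 change 0.39 ± 0.11, adjusted p = 0.0332). The concentrations overlapped, and it did not pass without the second 3% or the first 5% replicate, with log2 changes of 0.22 and 0.07. The remaining window of the 4, chr7:110960001-110965000, falls outside the rule by which windows were to be named and is given because so few passed. It takes in the first β-globin promoter and held 1131 and 1193 at 3% and 1544 and 1309 at 5% (log2 change 0.30 ± 0.09, adjusted p = 0.0332). It did not pass in 10 of 13 alternatives, among them leaving out any 1 of the libraries other than the second 5% replicate (log2 changes of 0.17 to 0.34).

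**Figure D4:**
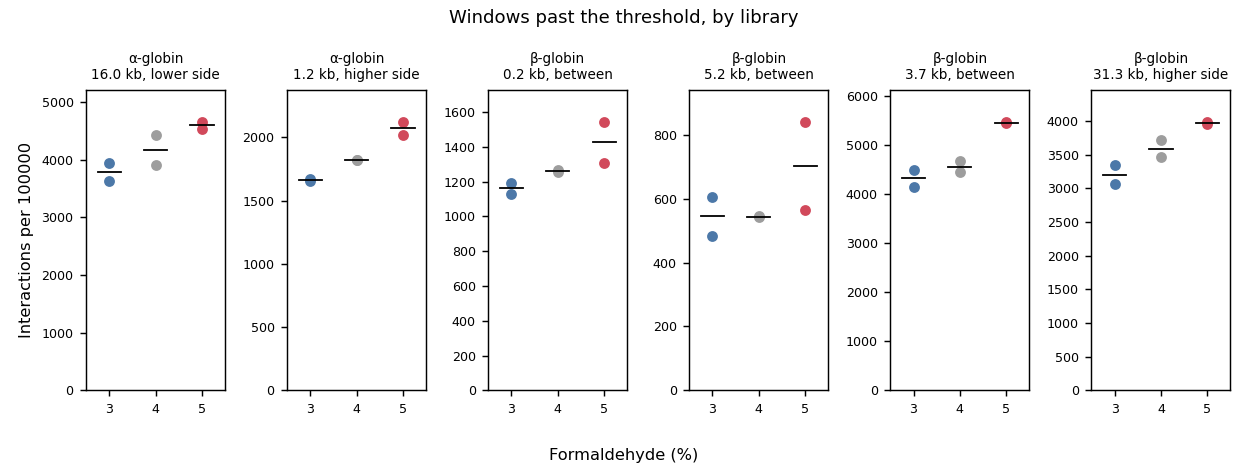
Interactions per 100000 in each library (vertical, from 0) against formaldehyde concentration in percent (horizontal) for the 6 windows of 5 kb that passed, titled by viewpoint, distance to the nearer promoter and side. Points are libraries and bars are means of 2. Both 5% points lie above both 3% points in 5 panels, and in the β-globin window at 5.2 kb they overlap, with 841 and 564 against 606 and 485.

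Among all windows tested, those that passed included, a log2 change above 0 was more frequent within 40 kb than over the whole set. Within 40 kb, the α-globin, β-globin and Slc25a37 windows with a log2 change above 0 numbered 15 of 18, 18 of 19 and 14 of 16, with medians of 0.11, 0.17 and 0.16. Over all windows tested, with 2 in trans at each globin locus, 139 of 244, 98 of 164 and 44 of 74 were above 0, with medians of 0.06, 0.09 and 0.07. From 40 to 250 kb the counts were 40 of 64, 35 of 64 and 21 of 46, and the medians 0.05, 0.02 and -0.03. Both 5% libraries lay above both 3% libraries in 13 of the 18, 13 of the 19 and 12 of the 16 windows within 40 kb, against 24.2%, 23.8% and 32.4% of all windows tested at the 3 viewpoints.

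**Figure D5:**
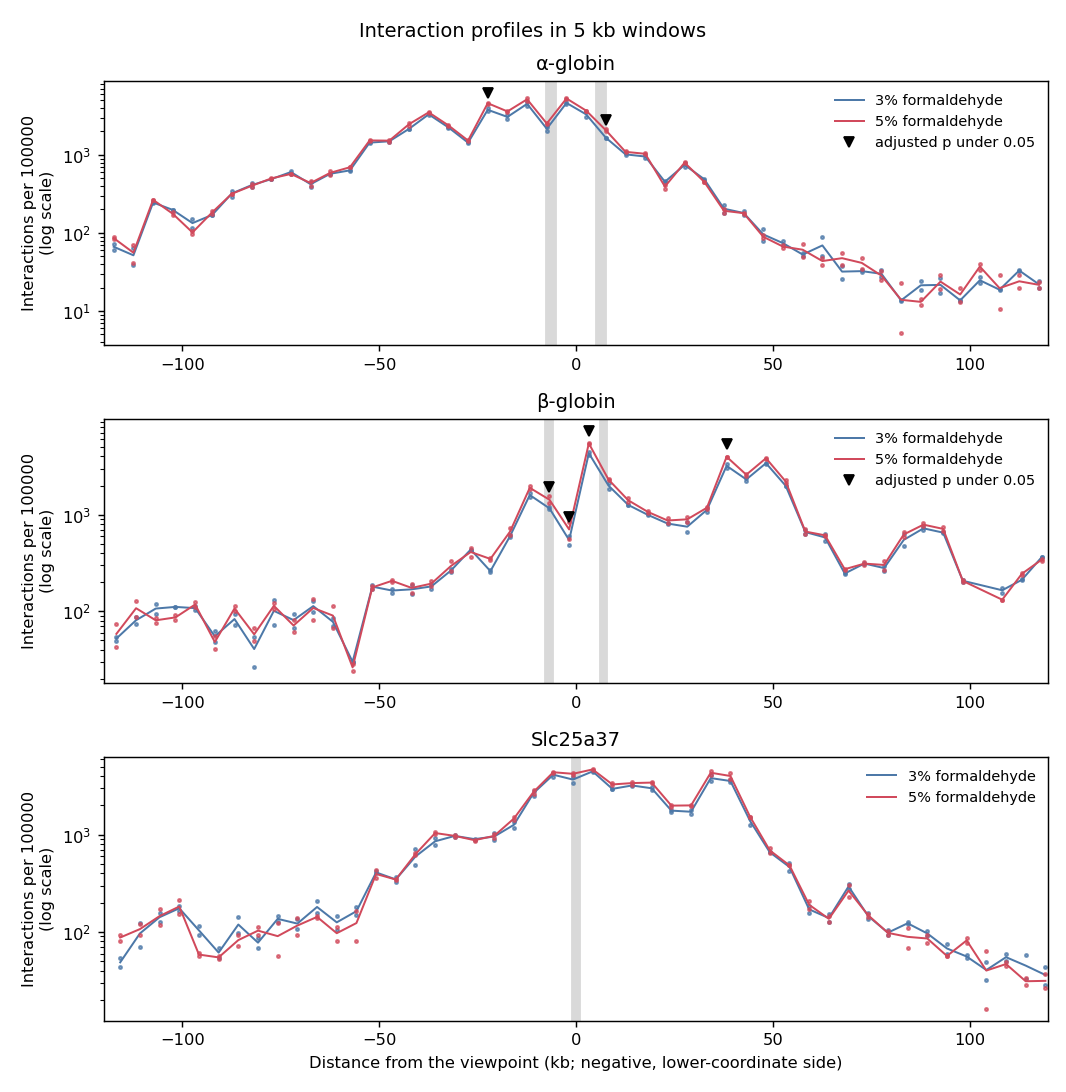
Interactions per 100000 in windows of 5 kb (vertical, log scale) at 3% and 5% formaldehyde, against distance in kb from the viewpoint, or from the midpoint between the promoters for the globin pairs (horizontal). Points are libraries, lines are means of 2, grey bands are the viewpoints and triangles mark the 6 windows with an adjusted p under 0.05. The 5% line runs above the 3% line near the viewpoints, as at 4601 against 3788 in the α-globin window on the enhancer side, and the 2 cross repeatedly farther out.

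At the level of single restriction fragments no change passed. The test called 0 fragments at each viewpoint (0.0%), of 338 tested around α-globin, 313 around β-globin and 218 around Slc25a37. At an unadjusted p under 0.05 there were 40 fragments for α-globin, 32 of them higher, 27 for β-globin, all higher, and 18 for Slc25a37, 17 of them higher, and with DESeq2 10, 2 and 0. With TMM factors there were 34, of which 17 were higher, 14, of which 10 were higher, and 7, of which 3 were higher, in the same order. The median log2 change over tested fragments was 0.11, 0.15 and 0.12, and 0.00, -0.02 and 0.00 with these factors, which centre the tested fragments. Within 40 kb, 144 of 189, 129 of 163 and 130 of 173 fragments were above 0. From 40 to 250 kb, these counts were 72 of 142, 91 of 146 and 27 of 45. At this depth, simulated log2 changes of 0.5 were found in 17, 0 and 19 of 60 fragments at the 3 viewpoints in the same order. Of 60 windows, they were found in 7, 11 and 25. The changed fragments and windows were drawn at random from all those tested, near and far. Changes of this size were thus mostly not detectable over the tested set. Windows near the viewpoints were not simulated apart, and those that passed there had log2 changes of 0.28 to 0.39.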

How the data were processed

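The deposited values are counts of unique interactions per DpnII fragment, made by the authors with their Capture-C pipeline after removal of PCR duplicates, without normalization. Per the labels, processing used Trim Galore, Bowtie and mm9, with versions not given in the sources used here. The 8 other library columns of each fixation table, and the low-input tables, were not used here.

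Counts over fragments, 5 kb windows and distance classes (mean count of at least 10) were tested with edgeR 4.0.16 (quasi-likelihood, 6 libraries, library total as size, no TMM factor) in R 4.3.3, with Benjamini-Hochberg adjustment at 0.05. The alternative with DESeq2 1.42.0 used that tool's own size factors, estimated from the tested features in place of the library totals. Python 3.11.15 (pandas 2.3.3, NumPy 2.4.6, SciPy 1.17.1) gave the other values, which were compared by exact two-sided permutation tests. Plots used matplotlib 3.10.9. The fits were tested on simulated counts: of 60 windows changed by a log2 of 1, 42 of 60, 37 of 60 and 46 of 60 were found for α-globin, β-globin and Slc25a37, and with no change simulated 0 were called. Within 250 kb, the 3 windows with the smallest adjusted p in each direction, all called fragments by a like rule, and all distance classes were to be named. Comparisons and lists were chosen with earlier results of these data known. Duplicates were removed by the authors from the mapped ends of the reads, and intervals cover counting error only. The tables list the libraries of 3% to 5% under the same form of name, and no label gives a batch.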

Additional observations from a re-analysis of the deposited data

How the results depend on the processing

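The differences in percent in cis, in percent within 250 kb, in decay slope from 10 kb to 1 Mb and in side ratio kept their direction at each viewpoint under the alternatives run. Leaving out 1 library at a time, the difference in percent in cis ran from 3.04 to 5.66 (α-globin), 4.28 to 5.48 (β-globin) and 2.69 to 4.03 (Slc25a37), and that in the nearer slope from -0.0517 to -0.0132, -0.0356 to -0.00949 and -0.0593 to -0.0292. Measured per restriction fragment the slope differences are the same by construction. Of interactions in cis, those within 250 kb differed by 2.81, 3.16 and 2.09 percentage points. The farther slope (1 to 40 Mb) turned to 0.0120 for β-globin and 0.0352 for Slc25a37 over 2 to 20 Mb, and leaving out 1 library it ran from -0.00586 to 0.00383 for α-globin, turning without the second 3% or the first 5% replicate, and from -0.0222 to 0.00323 for β-globin, turning without the second 3% replicate, and from -0.0487 to -0.0124 for Slc25a37. The cause was not tested.

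Counts of calls moved more. Fragments: with a mean count of at least 30, 3 for α-globin and 5 for β-globin. Windows: α-globin 0 with DESeq2, 0 without a filter on low counts, 5 with a mean of at least 30, 1 on the cis scale and 0 in windows of 20 kb; β-globin 1 with TMM, 0 with DESeq2, 0 without a filter and 2 on the cis scale. Leaving out 1 library gave 0 to 3 α-globin, 2 to 4 β-globin and 0 to 3 Slc25a37 windows (2 without the first and 3 without the second 3% replicate). Distance classes: α-globin 10 with TMM (5 higher, 5 lower, against 6 and 15), 9 with DESeq2 and 3 on the cis scale; β-globin 3 with DESeq2 (all higher) and 5 on the cis scale; Slc25a37 1 with TMM, 1 with DESeq2 (higher), 1 with the 4 libraries of 3% and 5% alone and 0 on the cis scale. Leaving out 1 library gave 1 to 22, 2 to 19 and 0 to 6 classes. DESeq2 left 16 α-globin and 12 β-globin classes without an adjusted p.

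Over single fragments, same-numbered libraries did not deviate together (correlations of deviations from -0.0841 to 0.149), and numbers were not taken to pair them. The first replicate nevertheless held less in cis than the second at 3%, 4% and 5% for α-globin and Slc25a37. For β-globin this held at 3% and 4% but not at 5% (70.1% and 69.3%). The slope from 10 kb to 1 Mb was shallower in the first replicate at each concentration for both globin loci, and for Slc25a37 only at 5%. Whether the numbers mark a shared step was not tested. With the replicate block, 8 windows passed for α-globin, 8 fragments for β-globin and 6 distance classes for Slc25a37 (3 higher, 3 lower), and the other 6 counts stayed within 1.5 times. Depth limits single fragments and windows, and most simulated log2 changes of 0.5 were missed when drawn from all those tested.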

Other observations

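The restriction fragments that were contacted in cis were slightly shorter at 5% than at 3%, a measure computed after the other values were seen. Averaged over interactions 20 to 250 kb from α-globin, the fragments were 517 and 515 bp long in the 3% libraries, 510.2 and 503 bp at 4% and 502 and 502 bp at 5%. For β-globin they were 541 and 543 bp at 3%, 544 and 524 bp at 4% and 523 and 530 bp at 5%, and for Slc25a37 478 and 466 bp, 458 and 456 bp, and 453 and 443 bp. Both 5% libraries lay below both 3% libraries at each viewpoint, and the means fell by 2.68% for α-globin, fell by 2.92% for β-globin and fell by 5.17% for Slc25a37. Beyond 1 Mb in cis the libraries again did not overlap, with means of 485 and 475 bp, 483 and 471 bp, and 522 and 507 bp. In trans the means for α-globin were 363 and 357 bp, without overlap, whereas β-globin (363 bp at both concentrations) and Slc25a37 (433 bp and 431 bp) overlapped. The exact permutation test cannot go below p = 0.333 here, and the part of fragment length in the other results was not tested.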
